A study of Mus musculus with 6 samples.

Results

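The genes described here are 10 transcription factors and cofactors of the erythroid and megakaryocyte lineages, namely Gata1, Klf1, Zfpm1, Tal1, Lmo2, Ldb1, Nfe2, Gfi1b, Myb and Lyl1. They were chosen by name for their role in these lineages, to set Gata1 and Klf1 against the 8 factors that act with them. The choice was made with earlier results of these data known. The paper that reported these libraries already named Gata1 and Klf1 among its most strongly lowered genes. All 10 were among the 45706 genes counted and among the 15184 genes with enough counts to be tested.

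The study asked how blood stem and progenitor cells depend on Setd1b, an enzyme that methylates histone H3 at lysine 4. RNA was sequenced from bone marrow cells sorted as Lin- Sca-1+ c-Kit+ (LSK), a compartment that holds the hematopoietic stem cells and multipotent progenitors. The 3 mice labelled Ctrl were heterozygous for the conditional Setd1b allele (FD/+; RC/+), and the 3 labelled cKO were homozygous (FD/FD; RC/+). They are described as littermates, and which mice shared a litter is not given. All 6 were male mice of a C57BL/6J background that carried 1 copy of the Rosa26-Cre-ERT2 transgene (RC). This transgene drives a tamoxifen-dependent recombinase in nearly all tissues and not in blood cells alone. All 6 received tamoxifen by gavage at 4.5 mg per day and were taken 3 days after the last dose, so that the mice labelled Ctrl also carry Cre, tamoxifen and 1 recombined allele. The mice were 16 weeks old except cKO replicate 3, which was 17 weeks old. The Ctrl replicates 1, 2 and 3 were mice AI03, AI54 and AI56, and the cKO replicates were mice AI02, AI55 and AH74.

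Each mouse gave 1 library, with total counts on genes between 13003573 and 21277519. By the numbers that the count table's header gives them, the libraries fall into 2 series. Series 1 holds Ctrl replicate 1 with cKO replicates 1 and 2, and series 2 holds Ctrl replicates 2 and 3 with cKO replicate 3. What the series stand for is not given in the sources used here. Transcripts of Gm42418 and Gm26917, which overlap ribosomal RNA sequence, took 4.45% to 5.30% of the counts in series 1 and 7.52% to 9.04% in series 2. P-values measure the spread between these mice.

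GATA1 is the zinc finger factor that directs erythroid, megakaryocyte, mast cell and eosinophil differentiation, and it binds DNA together with FOG1 (the product of Zfpm1) and with a complex of TAL1 or LYL1, LMO2 and LDB1. KLF1 is a zinc finger activator of red cell genes and a target of GATA1 in the erythroid lineage. NFE2 acts late in megakaryocytes and red cells, GFI1B represses transcription in both lineages, and MYB keeps progenitors dividing. In the LSK compartment these genes are transcribed before the lineages are separated.

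The targeted gene was examined first. Setd1b had 221, 194 and 223 CPM (counts scaled by library size with TMM factors) in the 3 libraries labelled Ctrl and 272, 288 and 314 CPM in the 3 labelled cKO. Every library labelled cKO was higher than every library labelled Ctrl, so that the amount of Setd1b RNA went against the labels. The log2 fold change, given throughout as labelled cKO over labelled Ctrl, was 0.46 (SE 0.0734, adjusted p = 0.00146 with edgeR's quasi-likelihood test and Benjamini-Hochberg adjustment). Recombination removes a single exon, and a count for the whole gene does not show whether that exon is present, so that the genotype was not checked by these counts. The groups are therefore named by their labels throughout, and each direction rests on those labels. The study reports complete recombination by PCR in sorted stem and progenitor cells, and loss of Setd1b RNA by qRT-PCR in multipotent progenitors. Those measures run the way the labels say, and they came from mice taken weeks after tamoxifen, not from these libraries. The study also reports loss of Setd1b RNA in kidney, spleen and liver and of the protein in liver. On RNA of the profiled LSK cells it reports Gata1 and Klf1 lower by qRT-PCR, a measure that rests on the same labels. The sorted cells carried RNA of the defining markers Kit (452 ± 59.5 CPM in the libraries labelled Ctrl and 440 ± 24.7 in those labelled cKO, SD, n = 3) and Ly6a, which encodes Sca-1 (44.4 ± 10.4 and 38.1 ± 2.04 CPM). Of the mature lineage markers removed before sorting, Cd3e, Cd8a and Ly6g had no more than 3 counts in any library.

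Of the 10 factors, Klf1 and Gata1 were lower in the libraries labelled cKO past the threshold of 0.05 on the adjusted p. The share called lower among all genes tested was 3.79%. Klf1 and Gata1 had been reported as lower in these data before the list was made. Their share of the list is therefore not a test against that background. No factor was called higher with edgeR or DESeq2, against 3.88% of all genes, and at an unadjusted p under 0.05 in edgeR Klf1, Gata1, Lmo2 and Gfi1b passed, all of them lower, against 22.9% of all genes passing in either direction and 11.5% passing as lower. Over all genes tested, 589 were called higher and 575 lower, and with the trend against gene length removed the split was 523 higher and 842 lower, with the same calls among the 10 factors. The log2 fold changes of the 8 partner factors lay between -0.37 and 0.17, with a median of -0.08, beside a median of 0.00 over all genes tested. The values of the groups did not overlap for 4 of the 10 factors, Klf1, Gata1, Lmo2 and Ldb1, against 27.3% of all genes tested, so that a gap between the groups alone is common in these data.

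**Figure D1:**
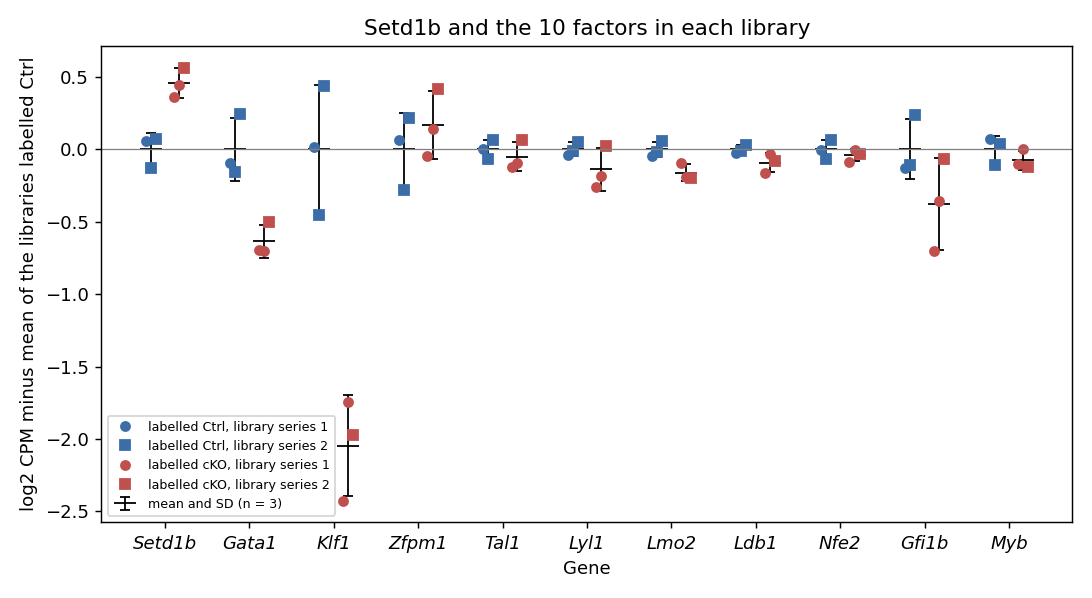
log2 CPM of Setd1b and the 10 factors in each library, minus the mean of the 3 libraries labelled Ctrl; points are libraries, the point shape gives the library series, and bars are mean and SD (n = 3). Klf1 sits lowest, with log2 values of -2.43, -1.74 and -1.97 in the libraries labelled cKO, Gata1 follows at -0.69, -0.71 and -0.50, and the partner factors other than Gfi1b stay closer to 0.

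Gata1 (ENSMUSG00000031162, chrX:7959260-7978071, minus strand, build mm10) had 35.4, 33.9 and 44.9 CPM in the libraries labelled Ctrl and 23.3, 23.1 and 26.7 CPM in those labelled cKO. All 3 libraries labelled cKO were below the lowest labelled Ctrl, and the spread was wider among the latter. Gata1 fell by a log2 fold change of -0.64 (SE 0.118, 95% interval -0.90 to -0.39, adjusted p = 0.00352 with edgeR), a level 1.56-fold lower. The log2 difference was -0.61 within library series 1 and -0.55 within series 2. These values rest on 348 to 712 counts per library.

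Klf1 (ENSMUSG00000054191, chr8:84901928-84905295, plus strand) had 35.1, 25.4 and 47.1 CPM in the libraries labelled Ctrl and 6.37, 10.3 and 8.77 CPM in those labelled cKO. The groups were far apart, and the highest library labelled cKO, replicate 2, was still below every one labelled Ctrl. Klf1 fell by a log2 fold change of -2.07 (SE 0.208, 95% interval -2.52 to -1.63, adjusted p = 2.08e-05 with edgeR), a level 4.21-fold lower. The log2 difference was -2.10 within series 1 and -1.97 within series 2. The exact two-sided permutation test over the 6 libraries gave p = 0.1 for Klf1 and for Gata1, which is the smallest it can give with 3 mice against 3. In bulk RNA, fewer cells that carry a transcript and less of it per cell cannot be told apart.

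Zfpm1 (ENSMUSG00000049577, chr8:122282141-122337251), which encodes the cofactor FOG1 that bridges GATA1 to the NuRD repressor complex, had 248, 195 and 275 CPM in the libraries labelled Ctrl and 229, 261 and 317 CPM in those labelled cKO. The groups overlapped, with Ctrl replicate 2 lowest and cKO replicate 3 highest. The log2 fold change was 0.17 (SE 0.118, adjusted p = 0.43 with edgeR). It was -0.02 within series 1 and 0.45 within series 2, so that the direction was not the same in both.

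Tal1 and Lyl1 encode related basic helix-loop-helix proteins that pair with E proteins, Lmo2 encodes an adaptor between TAL1 and LDB1, and Ldb1 encodes the protein through which such complexes join distant DNA sites. Lmo2 (ENSMUSG00000032698, chr2:103957986-103981878) had 427, 435 and 459 CPM in the libraries labelled Ctrl and 412, 386 and 383 CPM in those labelled cKO. The groups did not overlap, by a narrow margin between Ctrl replicate 1 and cKO replicate 1. The log2 fold change of Lmo2 was -0.16 (SE 0.0612, adjusted p = 0.125 with edgeR) and did not pass. Ldb1 (chr19:46032593-46045214) lay at 191, 193 and 198 CPM in the libraries labelled Ctrl and at 173, 189 and 184 CPM in those labelled cKO, with a log2 fold change of -0.09 (adjusted p = 0.416). Tal1 (chr4:115056426-115071755) lay between 92.5 and 101 CPM in the libraries labelled Ctrl and between 88.9 and 101 CPM in those labelled cKO, with a log2 fold change of -0.05 (adjusted p = 0.749). Lyl1 (chr8:84701457-84704715) lay between 83.0 and 88.7 CPM and between 71.2 and 87.0 CPM, with a log2 fold change of -0.14 (adjusted p = 0.349). The groups overlapped for Tal1 and Lyl1, and cKO replicate 3 was the highest library of its group for both. The log2 difference was -0.11 within series 1 and 0.06 within series 2 for Tal1, and -0.18 and 0.01 for Lyl1, so that the direction was not the same in both series.

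Gfi1b (ENSMUSG00000026815, chr2:28609450-28621982), which encodes a zinc finger repressor, had 35.6, 36.2 and 46.1 CPM in the libraries labelled Ctrl and 23.9, 30.4 and 37.2 CPM in those labelled cKO. The groups overlapped through cKO replicate 3, which was above Ctrl replicates 1 and 2, while cKO replicates 1 and 2 were below every library labelled Ctrl. The log2 fold change was -0.37 (SE 0.142, 95% interval -0.67 to -0.06, adjusted p = 0.137 with edgeR). It passed without cKO replicate 3 (log2 fold change -0.53, adjusted p = 0.0395) and with no filter on low counts (adjusted p = 0.0141), and over the fits that each lacked 1 mouse the adjusted p ranged from 0.0395 to 0.429. The difference in log2 CPM was -0.40 within series 1 and -0.13 within series 2.

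Nfe2 (chr15:103248212-103258403), the large subunit of the NF-E2 dimer, lay between 133 and 146 CPM in the libraries labelled Ctrl and between 131 and 139 CPM in those labelled cKO. Its log2 fold change was -0.04 (95% interval -0.18 to 0.10, adjusted p = 0.766 with edgeR). Myb (chr10:21124936-21160905) lay between 907 and 1027 CPM and between 896 and 977 CPM, with a log2 fold change of -0.08 (95% interval -0.22 to 0.06, adjusted p = 0.545). Both groups covered nearly the same range for Nfe2 and for Myb. Exons of Myb share 491 bases with a gene on the opposite strand, those of Ldb1 share 177 and those of Lyl1 share 4, and the counts were made on the strand of the gene.

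Levels between genes were compared as TPM (counts divided by exon length and scaled to the same total in each library). In the libraries labelled Ctrl, Myb (291 ± 38.8 TPM, SD, n = 3) and Lmo2 (247 ± 22.9) were the most abundant of the 10 factors and overlapped in their values. Zfpm1 (82.6 ± 11.1), Ldb1 (65.9 ± 7.09), Lyl1 (57.8 ± 5.52) and Nfe2 (56.6 ± 5.41) formed the middle, in which each neighbour differed by less than the sum of their SDs. Klf1 (27.9 ± 5.72), Tal1 (26.9 ± 2.65) and Gfi1b (25.9 ± 0.372) could not be ordered within their spread. Gata1 was the least abundant, at 19.3, 18.0 and 19.2 TPM, below every library labelled Ctrl of the other factors.

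In the libraries labelled cKO the level of Klf1 was 5.69, 8.99 and 6.59 TPM. It was then the least abundant of the 10, below Gata1 at 13.1, 12.7 and 12.6 TPM, and the 2 sets of values did not overlap. The order of the other factors changed only between Lyl1 (55.4 ± 0.970 TPM) and Nfe2 (58.3 ± 5.08), which differed by less than their spread.

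**Figure D2:**
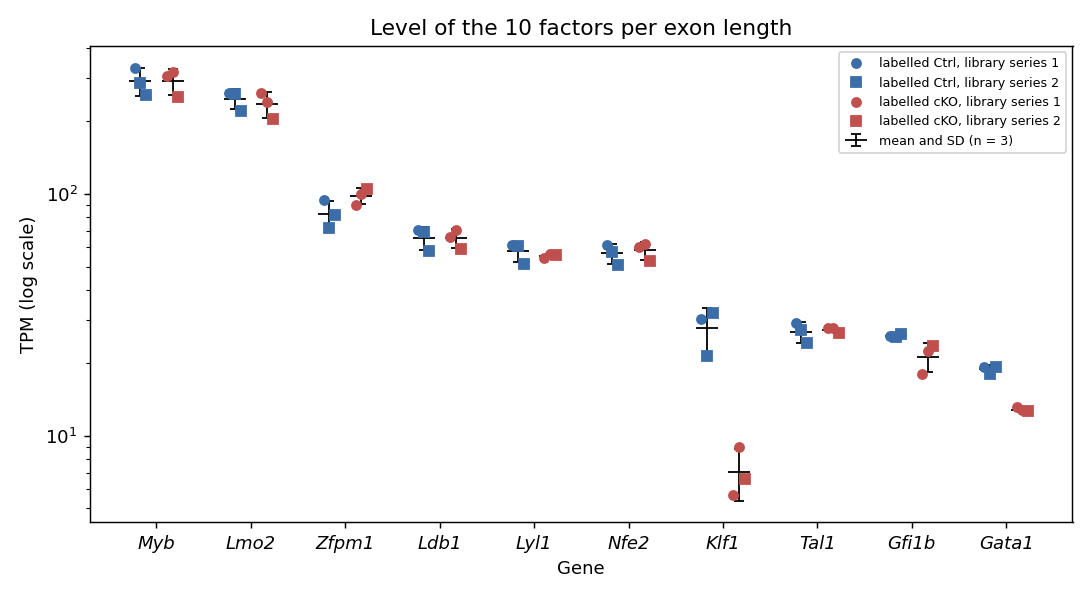
TPM of the 10 factors in each library on a log scale, ordered by the mean of the libraries labelled Ctrl; points are libraries, the point shape gives the library series, and bars are mean and SD (n = 3). Klf1 moves from 27.9 TPM, level with Tal1 and Gfi1b, to 7.09 TPM, under Gata1.

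Whether the partner factors changed by another amount than Gata1 was tested on the ratio of each gene to Gata1 within a library, in which the scaling of libraries cancels. Tal1 had 2.73, 2.72 and 2.25 times the CPM of Gata1 in the libraries labelled Ctrl and 3.81, 3.93 and 3.79 times in those labelled cKO. Zfpm1 had 7.01, 5.75 and 6.13 times the CPM of Gata1 in the former and 9.83, 11.3 and 11.9 times in the latter. For both ratios the lowest library labelled cKO was above the highest labelled Ctrl. The ratio to Gata1 changed past the threshold for 7 of the 8 partner factors in limma-trend, against 74.7% of all genes, with log2 differences from 0.47 (Lmo2) to 0.80 (Zfpm1). This share is close to that of genes in general, since a gene that itself fell differs from most others.

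The spread of Gata1 enters every such ratio, and pooling spread over genes does not measure it better, so that the limma-trend p-values are too small. With each gene's own spread alone, an alternative added after the data had been seen, 6 of the 8 partner factors passed, against 41.6% of all genes. The log2 differences were 0.80 for Zfpm1 (95% interval 0.48 to 1.13, adjusted p = 0.0316 with limma), 0.59 for Nfe2 (0.28 to 0.90, 0.0361), 0.58 for Tal1 (0.32 to 0.84, 0.0324), 0.56 for Myb (0.15 to 0.97, 0.048), 0.54 for Ldb1 (0.18 to 0.90, 0.0434) and 0.49 for Lyl1 (0.20 to 0.79, 0.0387). These calls do not hold with fewer mice. With 1 mouse left out and each gene's own spread, 3 of the 8 passed without Ctrl replicate 3 and 0 in the other 5 fits, while the differences of these 6 factors stayed above 0. In the main set, Lmo2 missed the threshold (0.47, 95% interval 0.11 to 0.84, adjusted p = 0.0521). For Gfi1b the log2 difference was 0.26, with an interval from -0.12 to 0.64 that holds 0, so that neither an equal nor an unequal change was shown. The CPM of Gfi1b was 1.0, 1.07 and 1.03 times that of Gata1 in the libraries labelled Ctrl and 1.03, 1.32 and 1.39 times in those labelled cKO, where replicate 1 stayed inside the range of the former.

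Klf1 was also set against Gata1. The CPM of Klf1 was 0.991, 0.749 and 1.05 times that of Gata1 in the libraries labelled Ctrl and 0.273, 0.445 and 0.329 times in those labelled cKO. The groups did not overlap, and the log2 difference was -1.41 (95% interval -2.11 to -0.71, adjusted p = 0.0344 with limma and each gene's own spread). With a mouse left out this difference ran from -1.60 to -1.25 and passed in none of the 6 fits (adjusted p from 0.0602 to 0.126). With Klf1 as the reference the same difference passed in each of them (adjusted p up to 0.0382), since the adjustment then runs over other ratios. Relative to Klf1, all 8 partner factors changed past the threshold with both fits, against 98.4% of all genes in limma-trend and 94.7% with each gene's own spread. These log2 differences ran from 1.67 (Gfi1b, 95% interval 1.04 to 2.31 with each gene's own spread) to 2.22 (Zfpm1, 1.65 to 2.78), and the exact permutation test gave its smallest possible p, 0.1, for each.

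**Figure D3:**
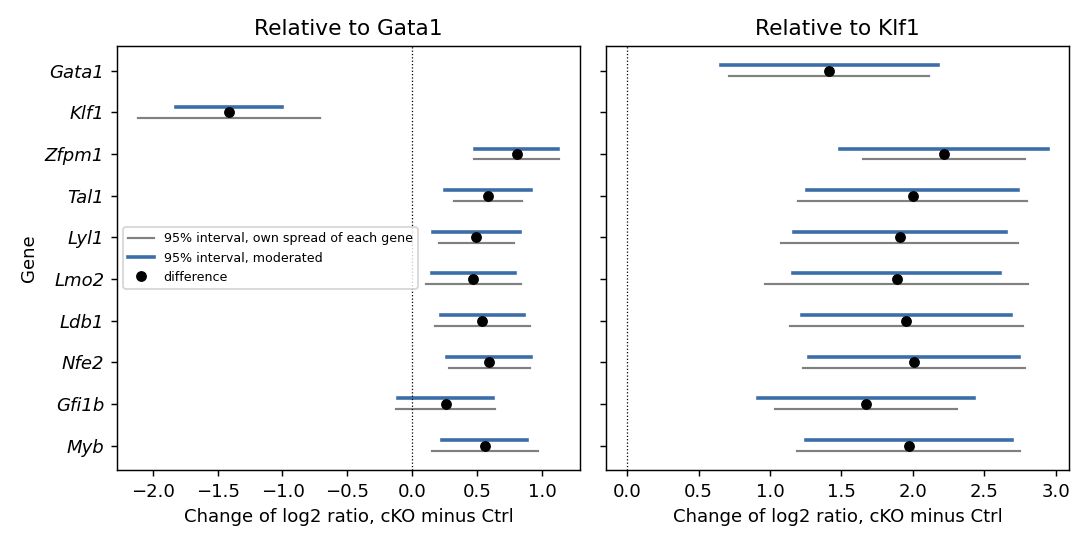
Change of the log2 ratio of each factor to Gata1 (left) and to Klf1 (right), labelled cKO minus labelled Ctrl; dots are differences, blue lines are 95% intervals from limma-trend and grey lines 95% intervals from each gene's own spread (n = 3 against 3). Relative to Gata1 the grey interval of Gfi1b, from -0.12 to 0.64, crosses 0, and relative to Klf1 every interval lies above 0.

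The other members of the families around these factors were counted in lists made by role. Of the 6 GATA factors 3 were tested, and Gata1 was the one called, against 7.67% of all genes called in either direction, with a median log2 fold change of -0.15 over the list. Gata2, the GATA factor of stem and progenitor cells, had 187, 175 and 220 CPM in the libraries labelled Ctrl and 157, 157 and 209 CPM in those labelled cKO, and the groups overlapped (log2 fold change -0.15, adjusted p = 0.422 with edgeR). For Gata3, a factor of T cells, the log2 fold change was -0.09 (adjusted p = 0.792). Gata4, Gata5 and Gata6 had no more than 3 counts in any library.

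Among FOG1 and the NuRD subunits, 1 of 13 tested genes was called (median log2 fold change -0.04), against 7.67% of all genes called in either direction, so that the list does not stand out. Mbd2, a NuRD subunit that binds methylated DNA, fell from 142, 137 and 132 CPM to 116, 114 and 96.2 CPM, with no overlap (log2 fold change -0.33, adjusted p = 0.0144 with edgeR). In the list of the TAL1, LMO2 and LDB1 complex, 1 of 14 tested genes was called (median -0.04), again close to the 7.67% of all genes. Lmo4, an adaptor related to Lmo2 that also binds LDB1, fell from 46.7, 57.4 and 52.7 CPM to 36.5, 36.2 and 35.9 CPM (log2 fold change -0.53, adjusted p = 0.00237). The E protein genes in this list did not pass, with log2 fold changes of 0.19 for Tcf12 (adjusted p = 0.0988) and -0.18 for Tcf3 (adjusted p = 0.182).

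Of 18 tested KLF and SP factors, 2 were called, both lower (median log2 fold change 0.07), near the 7.67% called over all genes. Beside Klf1 this was Klf9, a hormone-responsive member of the family, which fell from 22.4, 19.9 and 24.2 CPM to 12.2, 11.6 and 14.6 CPM (log2 fold change -0.79, adjusted p = 0.00199 with edgeR). No overlap was seen for Klf9. None of 8 tested NFE2, CNC-BACH and small MAF factors was called by edgeR or DESeq2, and at an unadjusted p under 0.05 it was Bach2 alone (log2 fold change 0.46, adjusted p = 0.0739), which passed with no filter (0.0137) and without Ctrl replicate 2 (0.0154). None of the 8 genes of the GFI1 family and its co-repressors was called by edgeR or DESeq2, with Gfi1b alone under an unadjusted p of 0.05, and the median was -0.09. None of 5 genes of the MYB family and its co-activators was called by edgeR, with 2 under an unadjusted p of 0.05 (Mybl2 and Crebbp). Mybl2 (log2 fold change -0.31, adjusted p = 0.0703 with edgeR) passed as lower with no filter (0.00781), with the length trend removed (0.034), without Ctrl replicate 1 (0.0413) and without Ctrl replicate 2 (0.0447), while DESeq2 called the co-activator Crebbp higher (log2 fold change 0.19, adjusted p = 0.0475 with DESeq2).

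Among 20 further regulators of these lineages 2 were called, both higher, near the 7.67% called over all genes (median log2 fold change -0.03). Fli1, an ETS factor that acts in megakaryocytes and opposes KLF1 in the choice between the lineages, rose from 147, 157 and 146 CPM to 186, 183 and 196 CPM (log2 fold change 0.33, adjusted p = 0.00477 with edgeR). Its groups did not overlap. The ETS factor Etv6 (log2 fold change -0.13, adjusted p = 0.2) and Spi1, which encodes the myeloid factor PU.1 (-0.19, 0.2), did not pass.

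Genes known as targets of KLF1 moved in both directions. Of 15 tested, 5 were lower and 2 higher, against 3.79% of all genes lower and 3.88% higher (median log2 fold change -0.20, beside 0.00 over all genes). The same shares stand behind the counts of the lists that follow, and a list with a single call in a direction is not set apart from genes in general by it. Car1, which encodes carbonic anhydrase 1, had 73.9, 47.3 and 53.2 CPM in the libraries labelled Ctrl and 0.804, 1.46 and 0.982 CPM in those labelled cKO. The latter rest on 12, 23 and 14 counts, and the log2 fold change was -5.72 (SE 0.223, adjusted p = 5.58e-10 with edgeR). Ermap, an erythroid membrane protein gene, fell from 37.5, 25.1 and 33.3 CPM to 2.95, 6.29 and 2.45 CPM (log2 fold change -3.01, adjusted p = 3.01e-06). For both genes every library labelled cKO was far below those labelled Ctrl, with replicate 2 the highest of the 3, as for Klf1.

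The other targets of KLF1 called lower were Add2, a gene of the membrane skeleton (log2 fold change -2.49, adjusted p = 0.0017 with edgeR), the water channel gene Aqp1 (-1.30, 1.58e-05) and the blood group gene Rhd (-1.96, 0.0214). Those called higher were Bcam, a laminin receptor gene, with 3.83, 3.34 and 3.90 CPM against 11.1, 6.54 and 11.4 CPM (log2 fold change 1.39, adjusted p = 0.00202), and Epb42, a gene of the red cell membrane skeleton, with 2, 4 and 5 counts against 12, 22 and 15 counts (2.25, 0.027). Rhd, Bcam and Epb42 move on few counts, and with a mouse left out the adjusted p reached 0.0845 for Rhd and 0.125 for Epb42. With DESeq2 the adjusted p of Epb42 was 0.0512. Rhd and Epb42 are named because they complete the counts, having been picked after their values were seen.

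Of 14 tested genes that GATA1 activates in erythroid cells, 5 were lower, against 3.79% of all genes, and none higher (median log2 fold change -0.29). The list includes 5 of the 10 factors, of which Klf1 alone was called. Ank1, the gene of erythrocyte ankyrin, fell from 42.9, 24.2 and 39.2 CPM to 6.57, 10.5 and 8.91 CPM (log2 fold change -2.02, adjusted p = 2.21e-05 with edgeR). Tfrc, the transferrin receptor gene, fell from 118, 144 and 114 CPM to 83.6, 99.7 and 95.7 CPM (log2 fold change -0.43, adjusted p = 0.00851). Rhag, a gene of the Rhesus complex, fell from 64, 47 and 38 counts to 5, 3 and 10 counts (log2 fold change -2.94, adjusted p = 0.0023). None of these genes had overlapping groups.

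Of 8 tested genes that GATA1 activates in megakaryocytes, 1 was higher, 1 was lower and 6 did not pass (median log2 fold change -0.15). Pf4, the gene of platelet factor 4, fell from 27.7, 24.0 and 25.9 CPM to 9.25, 11.7 and 11.1 CPM (log2 fold change -1.27, adjusted p = 2.27e-05 with edgeR). The platelet glycoprotein genes Gp1bb (-0.66, adjusted p = 0.18) and Itga2b (-0.15, adjusted p = 0.512) did not pass.

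Of the 6 genes that GATA1 represses, Myc was called and was lower, at 475, 482 and 515 CPM against 363, 386 and 387 CPM (log2 fold change -0.37, adjusted p = 0.0017 with edgeR). The other 5 genes did not pass, Gata2 and Myb among them. Of 5 targets of NFE2, Rab27b, a gene of granule transport in platelets, was called higher (11.8, 14.1 and 16.1 CPM against 17.8, 21 and 28.6 CPM, log2 fold change 0.68, adjusted p = 0.0218), and its adjusted p ran up to 0.112 with a mouse left out. For Tubb1, the platelet tubulin gene, the log2 fold change was -0.66 (adjusted p = 0.475) on no more than 20 counts per library.

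Markers of cell types were counted in the same libraries. The sort takes Sca-1-positive cells after depletion of mature lineages, TER-119-positive red cells among them, and granulocyte-monocyte progenitors are defined in the study as Sca-1-negative, so that these are levels of RNA and not counts of cells of those types. Of 9 tested erythroid markers 6 were lower, against 3.79% of all genes, and none higher (median log2 fold change -0.70), and their summed level was 484, 448 and 477 CPM in the libraries labelled Ctrl and 272, 323 and 306 CPM in those labelled cKO. The most abundant was Car2, a carbonic anhydrase gene, at 229 ± 18.7 and 187 ± 15.0 CPM (SD, n = 3; log2 fold change -0.29, adjusted p = 0.0307 with edgeR, and up to 0.131 with a mouse left out). The markers of mature red cells were near 0, with no more than 3 counts of Slc4a1 or Hba-a2 in any library and Hbb-bt at 2.20 ± 0.286 and 3.31 ± 1.45 CPM. The globin genes are near-identical copies between which reads can be lost or split, so that their values are uncertain. This list holds 12 genes that are also in the lists of GATA1 and KLF1 targets or of megakaryocyte and other genes above, and it is not a separate measurement.

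Of 10 tested megakaryocyte markers 2 were higher and 1 lower (median log2 fold change -0.01). Their summed level was 234, 256 and 258 CPM against 252, 263 and 347 CPM, which overlaps, with Itga2b the most abundant. Itgb3, the integrin beta 3 gene, rose from 25.8, 32.3 and 29.3 CPM to 45.9, 51.5 and 87.0 CPM (log2 fold change 1.07, adjusted p = 0.00202 with edgeR), and Pf4 is given above. cKO replicate 3 had the highest values of Itgb3 and Zfpm1.

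Markers of other lineages that use GATA factors or neighbour them also moved. Of 7 tested mast cell and basophil markers 4 were lower and none higher (median log2 fold change -1.44), with a summed level of 94.6, 75.5 and 91.2 CPM against 48.7, 34.8 and 37.7 CPM. The log2 fold change was -0.93 for Cpa3, a mast cell protease gene and the most abundant (adjusted p = 0.0028 with edgeR), and -3.54 for Ms4a2, which encodes a chain of the IgE receptor (adjusted p = 1.51e-08). Prss34, a basophil protease gene, had 37, 21 and 32 counts in the libraries labelled Ctrl and 0 counts in all 3 labelled cKO, at least 29.4-fold lower when 3 counts over the group are taken as the floor, and the median of the list is unchanged at -1.44 with this bound. Cma1, a mast cell chymase gene, was called by edgeR (adjusted p = 0.0357) and not by DESeq2 (0.348), and its groups overlapped.

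Of 9 granulocyte-monocyte progenitor markers 8 were lower and none higher (median log2 fold change -1.27), of which Csf3r did not pass with the library series as a covariate (adjusted p = 0.059) and Prtn3 did not pass with DESeq2 (0.0723). With a mouse left out the adjusted p reached 0.17 for Csf3r and 0.0753 for Prtn3. Their summed level was 3560, 2969 and 3488 CPM against 865, 667 and 560 CPM, with Mpo, the myeloperoxidase gene, the most abundant (log2 fold change -2.89, adjusted p = 1.58e-08 with edgeR). Every marker of this list had more than 3 counts in at least 1 library. Of 9 LSK and stem cell markers 2 were called, both higher (median -0.01), namely Procr, the endothelial protein C receptor gene of stem cells (log2 fold change 1.43, adjusted p = 0.000357), and the stem cell factor gene Mecom (0.45, 0.0032), and the summed level was 1502, 1408 and 1349 CPM against 1353, 1439 and 1332 CPM with Kit the most abundant. The surface receptor genes Flt3 (log2 fold change -0.31, adjusted p = 0.12) and Cd48 (-0.49, 0.0739) did not pass in the main fit. Flt3 passed as lower with no filter (0.00036), with the length trend removed (0.0377) and without Ctrl replicate 3 (0.00753), and Cd48 with no filter (1.25e-05) and without Ctrl replicate 1 (0.0132). With a mouse left out the adjusted p in edgeR reached 0.331 for Flt3 and 0.228 for Cd48. The log2 difference of Cd48 was 0.08 within series 1 and -1.08 within series 2, so that its direction was not the same in both. Of 3 tested mature lineage markers Itgam was called higher (log2 fold change 0.43, adjusted p = 0.0192, and up to 0.0972 with a mouse left out), and the 7 genes summed to 39.5, 39.9 and 43.6 CPM against 64.3, 55.0 and 49.7 CPM. The part of these cell types in the values of Gata1 and Klf1 was not tested.

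The genes around Gata1 and Klf1 in the genome were read from the same fit. Within 100 kb of Gata1, 9 other genes were tested, of which 1 was higher and none lower, against 7.67% of all genes called in either direction (median log2 fold change -0.08, range -0.63 to 0.95). Pim2, a kinase gene 75828 bases away, rose from 9.34, 15.0 and 11.5 CPM to 20.6, 23.1 and 26.4 CPM (log2 fold change 0.95, adjusted p = 0.00205 with edgeR). The nearest tested gene, the deacetylase gene Hdac6 at 11371 bases, had 22.7, 24.6 and 27.1 CPM against 34, 29.6 and 32.1 CPM (log2 fold change 0.36, adjusted p = 0.0518). The other 7 were Otud5, Slc35a2, Pqbp1, Timm17b, Suv39h1 and the pseudogenes Rpl22-ps1 and Gm7079, none of which was called.

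Within 100 kb of Klf1, 13 other genes were tested, of which 2 were lower and none higher, against the same 7.67% (median log2 fold change -0.14, range -0.54 to 0.13). Calr, the calreticulin gene 54994 bases away, fell from 2232, 2159 and 2513 CPM to 1662, 1464 and 1625 CPM (log2 fold change -0.54, adjusted p = 0.000335 with edgeR). Gadd45gip1 fell by a log2 fold change of -0.32 (adjusted p = 0.0253). This call was lost with the library series as a covariate (0.0508), and adjusted p reached 0.114 with a mouse left out. Dnase2a, a DNase gene of erythroblastic island macrophages and the nearest at 3265 bases, was at 41.0 ± 5.04 and 43.1 ± 0.869 CPM (SD, n = 3; log2 fold change 0.07, adjusted p = 0.73). The other 10 were not called, Farsa, Prdx2 and Junb among them. Lyl1 lies 197213 bases from Klf1 on chromosome 8, and its log2 fold change of -0.14 stands beside -2.07 for Klf1.

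The genes whose profile over the 6 libraries was nearest to that of Gata1, by the root mean square difference of centred log2 CPM among 11051 other genes, were Cebpa (0.038), Hist1h2bf (0.0633), Pmm1 (0.0791), Glrx5 (0.0909) and Tnip3 (0.101). Cebpa, which encodes a factor of the granulocyte and monocyte lineage, had 93.8, 91.8 and 120 CPM in the libraries labelled Ctrl and 61.8, 62.6 and 66.8 CPM in those labelled cKO. Its libraries stood in nearly the same proportions as those of Gata1, with Ctrl replicate 3 the highest. Among the other factors Gfi1b came nearest to Gata1, at 0.188 and rank 146, and Klf1 was at 0.751 and rank 10927.

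The genes nearest to Klf1 were Ank1 (0.164), Parm1 (0.169), Ces2g (0.222), Il1rl1 (0.261) and Trib2 (0.264), and Gata1 was at rank 100. All 10 of these nearest genes were called lower by edgeR, as were both reference genes, with log2 fold changes between -0.58 (Glrx5) and -2.02 (Ank1). The call of Tnip3 (adjusted p = 0.0463) was lost with each mouse left out in turn, at up to 0.142, with DESeq2 (0.0549), with limma-voom (0.0564) and with the library series as a covariate (0.0652), and that of Pmm1 without Ctrl replicate 3 (0.0808) and without cKO replicate 2 (0.0617). A profile of 6 libraries in 2 groups is set mainly by the difference between the groups.

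Promoter sequences were taken from RefSeq (GRCm38.p6), which gave an entry for 8 of the 10 factors, all but Lmo2 and Nfe2. The 250 bases upstream of the RefSeq start were searched on both strands for a GATA motif (AGATAA, with T also allowed at its start and G at its end), a KLF motif (CCNCNCCC), an E-box (CANNTG) and an NF-E2 and AP-1 motif (TGANTCA), with overlapping matches counted. Of 32841 promoters, 26.5% held a GATA motif, 45.9% a KLF motif, 66.2% an E-box and 6.75% an NF-E2 or AP-1 motif. The windows of Gata1 and Klf1, the factors that fell, are printed in gene orientation with GATA and KLF motifs in capitals. That of Klf1 is at chr8:84901732-84901981 (plus strand), and that of Gata1 at chrX:7967911-7968160 (minus strand), inside the interval of the longer gene model in the count table.
Klf1: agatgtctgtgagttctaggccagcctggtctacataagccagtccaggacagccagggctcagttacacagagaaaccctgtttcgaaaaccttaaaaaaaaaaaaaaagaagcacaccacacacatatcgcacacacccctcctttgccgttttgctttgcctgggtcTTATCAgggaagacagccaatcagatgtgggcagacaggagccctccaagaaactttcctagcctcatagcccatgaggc
Gata1: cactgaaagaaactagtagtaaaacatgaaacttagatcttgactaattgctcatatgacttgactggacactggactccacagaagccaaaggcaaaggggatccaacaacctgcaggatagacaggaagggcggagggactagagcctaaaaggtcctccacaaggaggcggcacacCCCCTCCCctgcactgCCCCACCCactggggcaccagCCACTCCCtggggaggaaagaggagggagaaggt
The Klf1 window held 1 GATA motif, in its reverse form, no KLF motif and 1 E-box. The Gata1 window held 3 KLF motifs, no GATA motif and 1 E-box. Among the partner factors, Gfi1b held 1 GATA and 2 KLF motifs, the windows of Zfpm1 and Myb held 4 and 3 KLF motifs and no GATA motif, and Lyl1 held 8 KLF motifs, some of which overlap, and no GATA motif. Tal1 has 2 entries, of which the upstream one held 1 GATA motif and no KLF motif and the other 4 KLF motifs and no GATA motif, and of the 3 entries of Ldb1 a single one held GATA motifs, 2 of them. No window of the 8 factors held the NF-E2 and AP-1 motif. The windows of Klf1 and Gata1 had 49.2% and 54.0% G and C and 3 and 2 CpG, beside a median of 52.4% and 6 CpG over all promoters, and those of Zfpm1 and Myb had 73.2% and 81.2% G and C with 28 and 40 CpG. These matches describe letters in a window, and binding was not measured.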

How the data were processed

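RNA-seq libraries of sorted LSK cells from 3 mice labelled Ctrl and 3 labelled cKO were used, grouped by the genotype in the labels. Per the labels and the file headers, the authors made the libraries with a stranded total RNA kit for low input, aligned reads to mm10 with GSNAP and deposited counts per gene from featureCounts 1.5.0 for Ensembl 81, counted strand-specifically, with a minimum mapping quality of 1 and no normalization. Symbols came from GENCODE M21, which named 98.8% of the gene identifiers.

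From these counts, all genes were tested with edgeR 4.0.16 in R 4.3.3 (TMM, filterByExpr defaults, quasi-likelihood test, genotype alone), with Benjamini-Hochberg adjustment over 15184 genes and a threshold of 0.05. CPM used TMM factors, log2 CPM a prior count of 2, and TPM the deposited exon length. Ratios to Gata1 and Klf1 were fitted with limma 3.58.1 on log2 CPM, and single values with exact two-sided permutation tests. The procedure was tested on simulated data. Replicates of a group differed beyond sampling noise.

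The members and lists were chosen with earlier results of these data known. Named were the 10 factors, Setd1b, up to 4 further tested genes with the smallest p per list, tested genes within 100 kb of Gata1 or Klf1, and the 5 genes nearest to each in profile among those with a mean of at least 5 CPM. Other genes named to complete a count were chosen after their values were seen. A gene was taken as not detected where no library held more than 3 counts. Alternatives were DESeq2 1.42.0 and its size factors, limma-voom, limma without moderation for ratios, other filters, removal of dominant genes (394), removal of the length trend, the library series as a covariate or within each series, a threshold of 0.01, a prior count of 0.5, CPM for levels and each mouse left out.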

Additional observations from a re-analysis of the deposited data

How the results depend on the processing

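No paired analysis was made. The study calls the mice littermates, but the labels carry no litter or replicate number that ties a mouse labelled cKO to one labelled Ctrl. The library series was fitted as a covariate.

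Gata1 and Klf1 were lower and past the threshold under every alternative with a test. Over the fits that each lacked 1 mouse, the log2 fold change ran from -0.72 to -0.51 for Gata1 (adjusted p up to 0.0278) and from -2.28 to -1.83 for Klf1 (up to 0.000239), and 2 or 3 factors were called lower and 0 higher. In limma-trend, whose p-values are too small for ratios, the number of partner factors differing from Gata1 ran from 5 to 7 and from Klf1 stayed at 8, with Lmo2 lost without cKO replicate 1 (adjusted p = 0.0825) and without cKO replicate 2 (0.0570), and Lyl1 without cKO replicate 2 (0.0511). With each gene's own spread the number differing from Gata1 went from 6 to 3 without Ctrl replicate 3 and to 0 without any other mouse, and Klf1 relative to Gata1 did not pass (adjusted p up to 0.126), while all 8 partner factors differed from Klf1 in every fit. The differences from Gata1 kept their direction in every fit.

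Over all genes, 873 were lower and 809 higher with no filter on low counts, against 575 and 589. At a threshold of 0.01, 272 were lower and 241 higher. With each mouse left out the counts ran from 307 to 605 lower and from 311 to 544 higher. With the length trend removed the share of higher calls went from 50.6% to 38.3%. Causes of these shifts were not tested, beyond the stricter threshold and the smaller number of mice that define the alternatives. Ranked by CPM in place of TPM in the libraries labelled Ctrl, Klf1 was lowest (rank 10) and Gata1 next (rank 9).

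With 3 mice a group, the intervals of Lmo2 and Gfi1b lie below 0 while their adjusted p did not pass, and intervals of the partner factors reach from -0.67 to 0.42. The fit of a ratio has the spread of 1 reference gene in it. The sorted cells were not separated by type, exon 5 was not counted by itself, and the library series is known by number alone.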
